A study of Rattus norvegicus with 9 samples.

Results

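The comparison set 3 libraries of cells given energized structured water (ESW) against 3 libraries of cells given control water (CW), 6 of the 9 libraries of the study. Its members were taken from the sample titles, and every gene with enough reads was compared, non-coding genes included. All cells were H9c2(2-1), a myoblast line from embryonic BD1X rat heart with a wild-type genotype, which is widely used as a stand-in for heart muscle cells and can be driven towards skeletal or cardiac muscle. Both waters were diluted to 0.01 in the growth medium for 72 h, and the medium was renewed every 24 h. The remaining 3 libraries (Control) came from cells kept in growth medium alone and are given beside the results. All groups are thus the same single line, and the labels do not say what distinguishes the structured from the control water beyond its name, nor whether the 3 libraries of each group were grown as separate cultures. A p-value here thus measures only how far these samples spread, and that spread may be technical.

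Most of a cell's messenger RNA encodes protein, but a large number of loci give long non-coding RNAs (lncRNAs), transcripts without a recognised protein product that are often spliced slowly, kept in the nucleus and turned over quickly. The same holds for many alternative transcripts of protein-coding genes that retain introns. Factors of the nuclear speckles, the compartments where splicing proteins are stored, often control their own amounts through such transcripts.

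The deposited tables held 26748673 to 37503351 estimated reads per CW library, 36103041 to 43114613 per ESW library and 36193439 to 48574618 per Control library. Markers of the labelled cell type were present but low: Myod1 lay at 7.59 to 11.2 CPM (a gene's reads per unit of the scaled library total) and the myoblast cadherin Cdh15 at 29.8 to 36.7 CPM over the 9 libraries, whereas Myf5 had 2 reads in all. Of the cardiomyocyte markers Tnnt2 lay at 51.4 to 62.3 CPM, but Ryr2, Nkx2-5 and Nppa had 5, 6 and 5 reads in all libraries together. Several genes of collagen-producing and smooth muscle cells were far higher, and 4 of 8 fibroblast markers and 4 of 6 smooth muscle markers were called higher in ESW. Summed fibroblast markers reached 89492 to 92642 CPM in ESW and 75906 to 79809 CPM in CW, and summed smooth muscle markers 13067 to 13377 and 11644 to 12443 CPM. Most of the fibroblast sum came from Col1a1, Col1a2 and Col3a1. Of the other fibroblast markers Postn lay at 1698 to 2034 CPM, but Dcn lay at 8.34 to 11.1 CPM and Pdgfra had 84 reads in all. The summed markers move with the matrix and contractile genes, several of which they share, and their part in those results was not tested. In bulk RNA, more cells of a type and more RNA per cell cannot be told apart. Of the endothelial, blood, epithelial, neural, myoblast and cardiomyocyte markers 0 were called by edgeR. On the first principal component the ESW libraries scored -28.7 to -8.79 and the CW libraries 15.4 to 16.5. Control replicate 1 scored -10.9, inside the ESW range and apart from the other Control libraries.

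Between ESW and CW, lists of extracellular matrix, lysosome, smooth muscle and NRF2 oxidant response genes held members that were higher in ESW by modest amounts and none that were lower. Members of the lncRNA, zinc finger, nuclear speckle and ribosomal protein groups were called lower far more often than higher, though most members of each group were not called. Of 14706 genes tested, 1197 passed an adjusted p of 0.05 in edgeR's quasi-likelihood test and are referred to as called (8.14%), 610 of them higher in ESW (4.15%) and 587 lower (3.99%). For 1168 of the called genes the 3 ESW and 3 CW values did not overlap (7.94% of the tested genes), and such separation was seen in 28.3% of all tested genes. Among called genes the rises were small and the falls larger: called higher genes had a median log2 fold change of 0.18, called lower protein-coding genes one of -0.33 and called lower lncRNAs one of -0.76, 1.69-fold. Their levels differed, and at a high level a smaller change can be called. Above 30 CPM lay 534 of the 607 higher and 199 of the 437 lower protein-coding calls. A change of at least 2-fold was reached by 66 lower genes, of which 30 were lncRNAs and 35 protein-coding, and by 5 higher ones. When scaling used protein-coding genes only, 439 genes were higher and 687 lower. With ESW replicate 2 or 3 left out the number called fell to 571 or 314, and with CW replicate 2 or 3 left out to 407 or 474. All 1197 genes kept their sign in each of these fits. That says little, since leaving out 1 library can hardly turn the sign of the 1168 genes without overlap. In the same model CW against Control called 26 genes (0.177%) and ESW against Control 1183 (8.04%). These 2 comparisons share libraries with the one described here and with each other.

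**Figure D1:**
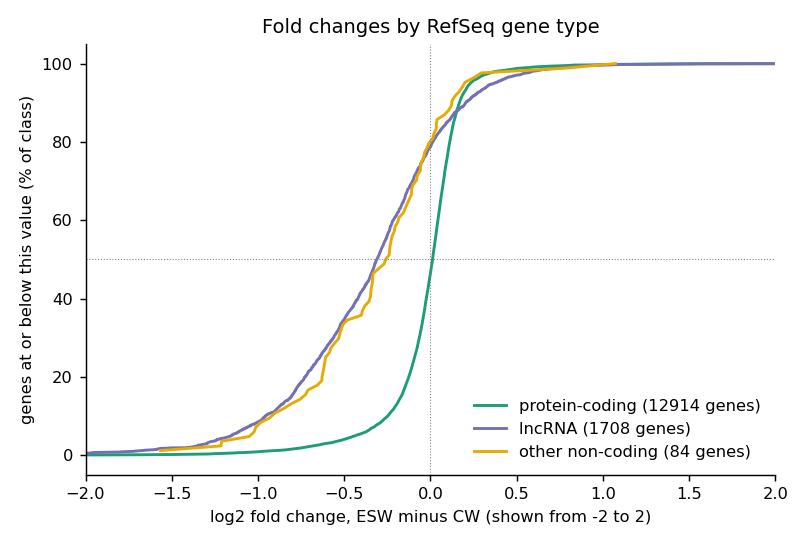
Cumulative distribution of the log2 fold change, ESW minus CW, for 12914 protein-coding, 1708 lncRNA and 84 other non-coding genes. The x axis is the log2 fold change between -2 and 2 and the y axis the percentage of the class at or below it. The protein-coding curve crosses 50% close to 0 (median 0.01), the lncRNA curve at -0.31 and the other non-coding curve at -0.25.

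LncRNA genes had lower values in ESW more often than higher ones. Of 10872 annotated lncRNA genes, 1708 had enough reads to be tested, and 142 of these were called lower (8.31%, where 3.99% of all genes were) against 2 called higher. Their median log2 fold change was -0.31, with 78.8% below 0, beside 0.01 for protein-coding genes and 0.00 for all tested genes. LncRNAs made up 24.2% of all genes called lower. Among 84 other non-coding genes 8 were lower and 1 higher, with a median of -0.25. Leaving out ESW replicate 2 or 3 gave 66 or 46 lncRNAs called lower, and leaving out CW replicate 2 or 3 gave 68 or 65. The median ranged from -0.37 to -0.29 in the fits that each left out 1 library.

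The difference held at every level of expression. LncRNAs of at most 1 CPM had a median of -0.34, those of 1 to 3 CPM -0.29, those of 3 to 10 CPM -0.28, those of 10 to 30 CPM -0.18 and those above 30 CPM -0.25. Protein-coding genes in the same ranges had medians of -0.15, -0.06, -0.04, -0.01 and 0.04. The share called lower rose with the level, from 20 of 1096 lncRNAs at the bottom to 54 of 165 between 3 and 10 CPM and 19 of 35 above 30 CPM, where precision is greater. Of 563 lncRNAs that overlapped a tested protein-coding gene 38 were called lower with a median of -0.33, and of 1145 others 104 were, with a median of -0.30. The protein-coding genes they overlapped had a median of 0.03. The strand setting of the counting is unknown here, and overlapping genes may share reads.

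The reads on lncRNA genes formed 0.719%, 0.694% and 0.682% of all reads in ESW replicates 1 to 3 and 0.849%, 0.872% and 0.878% in CW. The groups did not overlap, and their means were 0.698% ± 0.0189 and 0.866% ± 0.0151 (SD, n = 3 each). Control had 0.774%, 0.824% and 0.877%, between the waters in replicates 1 and 2 and within the range of CW in replicate 3. An exact two-sided permutation test of ESW against CW gave p = 0.1, the smallest value that 3 against 3 libraries allow. Alternative transcripts without a reading frame that belong to protein-coding genes followed the same order in their means. They took 0.361%, 0.327% and 0.338% of the reads on protein-coding genes in ESW and 0.409%, 0.430% and 0.418% in CW (exact permutation p = 0.1). Control had 0.361%, 0.393% and 0.407%, with replicate 1 level with ESW replicate 1. The remaining non-coding gene types, without pseudogenes, were ribosomal, signal recognition particle and other RNAs. They also took more of all reads in CW, 0.566% to 0.627%, than in ESW, 0.464% to 0.510%, or Control, 0.445% to 0.495%. The labels used here do not give how ribosomal RNA was removed or messenger RNA selected before sequencing, and the part of that step in these shares was not tested.

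**Figure D2:**
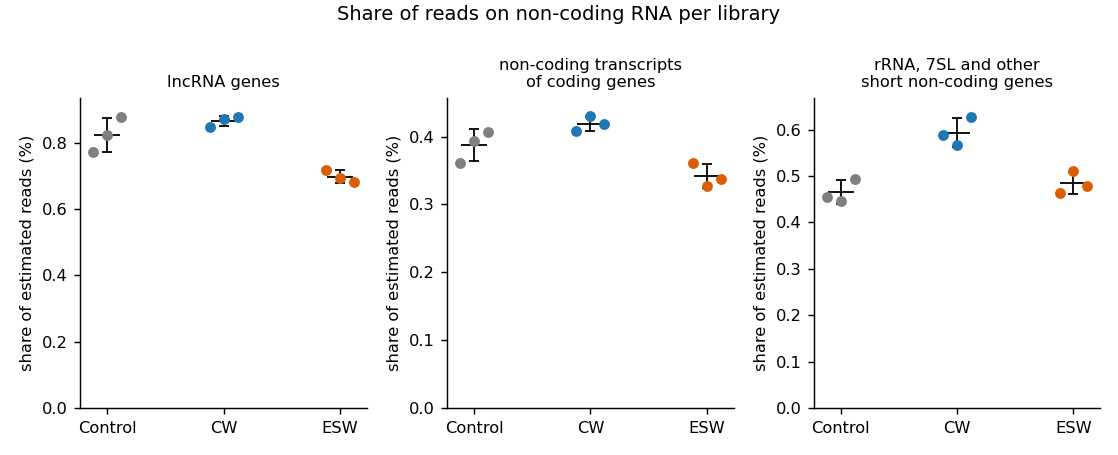
Share of estimated reads, in percent, on lncRNA genes, on non-coding transcripts of protein-coding genes and on ribosomal and other non-coding genes. The last class leaves out lncRNAs and pseudogenes. The second panel is a share of the reads on protein-coding genes, the others of all reads. Points are libraries and bars the mean with SD (n = 3 per group). ESW lies below CW in all 3 panels, without overlap. Control lies between them in the mean of the first 2 panels and at 0.465% in the third, below ESW at 0.485%.

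The untreated libraries are given as a description. Against Control the median of all tested lncRNAs was -0.21 in ESW and 0.10 in CW, and 39 of the 142 were also called lower in ESW than in Control. The libraries of a group differed, however. Relative to the CW mean, the median lncRNA lay at -0.21, -0.28 and -0.36 in ESW replicates 1 to 3 and at -0.20, -0.03 and 0.00 in Control replicates 1 to 3, while the median protein-coding gene lay within 0.02 of the CW mean in every library. Control replicate 1 was at or below the highest ESW value for 70 of the 142 genes, Control replicate 2 for 21 and Control replicate 3 for 9. Without Control replicate 1 in the model, 161 lncRNAs were called lower and 1486 genes in all.

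Among the most abundant lncRNAs, LOC134486713 had 738, 710 and 747 CPM in ESW and 941, 881 and 991 CPM in CW, with 856, 844 and 997 CPM in Control. The ESW values lay below all 6 others, a log2 fold change against CW of -0.36 (SE 0.05, edgeR adjusted p = 0.00113). LOC134482113 fell by 0.34 and LOC134479992, inside the neuronal adhesion gene Cntn5, by 0.41 on the log2 scale. H19, the imprinted lncRNA of embryonic muscle, did not follow them, with 582, 629 and 616 CPM in ESW and 587, 587 and 528 CPM in CW (log2 fold change 0.10, adjusted p = 0.220). Neither did Gas5, a host of small nucleolar RNAs, at -0.10 (SE 0.05, adjusted p = 0.189). Above 30 CPM the single lncRNA called higher was LOC120103615, at 0.20.

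LOC134482693 had the smallest p of any lncRNA. It lay at 28.8, 23.5 and 21.5 CPM in ESW, 43.5, 47.9 and 45.2 CPM in CW and 28.5, 39.0 and 41.2 CPM in Control, a log2 fold change of -0.89 (SE 0.11, edgeR adjusted p = 0.000403). The gene overlaps Igf2r, the receptor that takes insulin-like growth factor 2 to lysosomes and a locus known for a regulatory lncRNA in the mouse. Igf2r itself moved the other way, from 335, 322 and 323 CPM in CW to 348, 359 and 387 CPM in ESW (0.16, adjusted p = 0.0261). LOC134482495, whose nearest coding neighbour is the heart transcription factor gene Hand2, lay at 9.65, 8.85 and 8.97 CPM in ESW against 17.9, 17.2 and 18.8 CPM in CW, a log2 fold change of -0.97. Hand2 differed from CW by 0.13 and was not called (adjusted p = 0.0939). LOC134480389, next to the ephrin receptor gene Epha4, fell by 0.61 while Epha4 was at 0.10 (adjusted p = 0.389).

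LOC134479817 had 0 reads in each ESW library, 228, 91 and 239 in CW and 0, 22 and 0 in Control. With a floor of 3 reads per library, ESW was at least 72.9-fold lower than CW. CW replicates 1 and 3 held most of the reads, and the untreated cells were near ESW. The fixed list of named regulatory lncRNAs had 6 tested members, of which 1 was called lower: Pvt1, the neighbour of the Myc oncogene, with 6.16, 6.12 and 6.74 CPM in ESW and 8.56, 7.398 and 8.81 CPM in CW (-0.38, adjusted p = 0.0320, with no call in the fit with offsets for transcript length). Of 4 tested snoRNA host genes 0 were called.

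LncRNAs that overlap genes of several muscle and growth-control microRNAs were among those called lower. This grouping was made after the values had been seen. Overlap was judged by position, the strands were not compared, and such lncRNAs are called hosts below. Of 21 tested lncRNAs that overlap a microRNA gene, 6 were called lower (28.6%, where 8.31% of all lncRNAs were) and 0 higher, with a median of -0.52. The 8.31% covers lncRNAs of every level. It was 1.82% for those of at most 1 CPM, 32.7% from 3 to 10 CPM and 37.7% from 10 to 30 CPM. The 21 were not compared with lncRNAs of like level. Carmn, the host of miR-143 and miR-145 in smooth and cardiac muscle, had 24.4, 17.3 and 17.8 CPM in ESW, 30.8, 33.2 and 35.7 CPM in CW and 18.9, 27.8 and 30.1 CPM in Control. Every ESW library lay below every CW library, by 0.75 on the log2 scale (SE 0.13, edgeR adjusted p = 0.00283), and Control replicate 1 lay in the ESW range. Lnc215, which spans miR-100, let-7a-2 and miR-125b-1, had 12.2, 7.97 and 7.34 CPM in ESW and 14.5, 19.996 and 18.6 CPM in CW (-0.96). Mir100hgl at the same locus, annotated as protein-coding, fell from 54.6, 62.8 and 55.5 CPM in CW to 38.5, 25.1 and 24.0 CPM in ESW (-0.99, SE 0.16). Vof16, which overlaps both, was at 3.29, 1.09 and 0.943 CPM in ESW and 3.67, 4.53 and 5.80 CPM in CW (-1.42), with ESW replicate 1 close to CW. These 3 genes overlap and can share reads, so that they are not independent. LOC103692514, the host of the p53-responsive miR-34a, was at -1.17. LOC103693508, the host of miR-99a, let-7c-1 and miR-125b-2, was at -0.58. LOC108352541 with miR-181a-1 was at -0.77 and LOC130062807 with miR-31 at -0.50. The hosts of miR-221 and miR-222 (LOC120099382) and of miR-29b-2 and miR-29c (LOC102550527) were not called, at -0.38 and 0.01.

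Mature microRNAs are too short for these libraries and were not measured. Their precursors were not measured either. The mature sequences are shown because a microRNA finds its messenger RNAs through bases 2 to 8, the seed, set in capitals. They are from RefSeq (GRCr8), 5′ to 3′.
miR-100-5p (Lnc215): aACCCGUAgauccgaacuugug
let-7a-5p (Lnc215): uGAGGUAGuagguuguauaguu
miR-125b-5p (Lnc215): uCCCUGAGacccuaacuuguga
let-7c-5p (LOC103693508): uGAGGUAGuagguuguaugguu
miR-143-3p (Carmn): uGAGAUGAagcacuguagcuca
miR-145-5p (Carmn): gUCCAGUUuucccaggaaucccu
miR-34a-5p (LOC103692514): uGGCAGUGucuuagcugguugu
miR-181a-5p (LOC108352541): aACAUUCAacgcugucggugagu
miR-31a-5p (LOC130062807): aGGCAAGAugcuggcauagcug
let-7a and let-7c, at the separate hosts Lnc215 and LOC103693508, share the seed GAGGUAG and differ outside it. The other 7 have seeds of their own.

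Alternative transcripts of protein-coding genes were examined in the same way. When the reads of each protein-coding gene were divided between its coding and its non-coding transcripts, a division made after the data had been seen, 1158 non-coding sums could be tested and had a median log2 fold change of -0.30. In the 1120 genes where both could be tested the coding sums had a median of -0.01, and the non-coding sum lay below the coding sum in 755 (67.4%). Of the non-coding sums 41 were called lower and 4 higher, in a fit where 1.97% of all 15817 sums were called lower and 4.55% in either direction. The coding sum of the same gene was also called for 2 of the 41, Zfp40 and Gabbr1, and was not tested for Tdrd15 (these 3 are named after their values were seen). The 41 became 26, 8 or 4 when CW replicate 1, 2 or 3 was left out, 11 or 0 when ESW replicate 2 or 3 was, and 66 when Control replicate 1 was.

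Sfpq encodes a splicing factor of the paraspeckles. Its non-coding transcripts lay at 80.8, 75.1 and 67.5 CPM in ESW and 89.7, 108 and 102 CPM in CW, and fell by 0.43 on the log2 scale (SE 0.09, edgeR adjusted p = 0.0252), while its coding sum was at 0.08 (adjusted p = 0.366). The non-coding transcripts of Parva, the focal adhesion protein parvin, lay at 20.4, 13.1 and 11.8 CPM in ESW and 26.6, 33.0 and 31.4 CPM in CW (-1.01), against 0.08 for its coding sum. Tardbp, which encodes TDP-43, had -0.54 against 0.10. Luc7l3, a component of the U1 particle, had -0.37 against -0.03. Those of Atp2a2, the calcium pump of the sarcoplasmic reticulum, ran the other way, at 84.2, 84.1 and 78.3 CPM in ESW and 68.9, 75.5 and 65.6 CPM in CW (0.23). The non-coding transcripts of Nktr were not called (-0.12, SE 0.21).

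Single transcripts were tested too, as a description, since the tables carry no estimate of the error with which reads are divided among transcripts. Of 38609 transcripts 0 were called by edgeR (0.0%), with a smallest adjusted p of 0.0525, and 3823 had an unadjusted p under 0.05. Of the 28926 transcripts that reached 1 CPM in 3 libraries 12 were called. The medians repeated the gene-level order: -0.30 for lncRNA transcripts, -0.28 for 1488 non-coding transcripts of protein-coding genes and 0.01 for coding transcripts. In 553 genes with a transcript of at least 1 CPM and at least 2 times as long as the most abundant one, the longest transcript had a median of -0.23 and the most abundant one of 0.02. The longest lay below in 395 of them (71.4%).

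Tra2a, an activator of exon inclusion, showed this within 1 gene. Its curated transcript of 1857 bases lay at 51.9, 48.9 and 49.8 CPM in ESW and 48.8, 48.7 and 54.6 CPM in CW. A predicted transcript of 12136 bases lay at 27.2, 16.3 and 15.0 CPM in ESW, 34.8, 41.2 and 41.7 CPM in CW and 22.4, 33.4 and 36.9 CPM in Control. The short form differed by -0.02 (SE 0.10) and the long one by -1.01 (SE 0.27, unadjusted p = 0.006, adjusted p = 0.264). For Arglu1, a speckle protein that retains an intron of its own transcript, the coding form of 1719 bases was at -0.09, and the non-coding form of 2693 bases lay at 15.5, 17.95 and 19.1 CPM in CW and 11.6, 8.08 and 7.09 CPM in ESW. As a sum over its non-coding transcripts it was called, at -0.99 (SE 0.19, adjusted p = 0.0176). For Nktr, a large cyclophilin with splicing domains, the coding transcript of 6898 bases was at -0.09 and those of 15380 and 11181 bases at -1.17 and -2.10. In the last of these the ESW values were 3.91, 2.02 and 2.28 CPM and the CW values 6.64, 12.4 and 16.2 CPM.

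**Figure D3:**
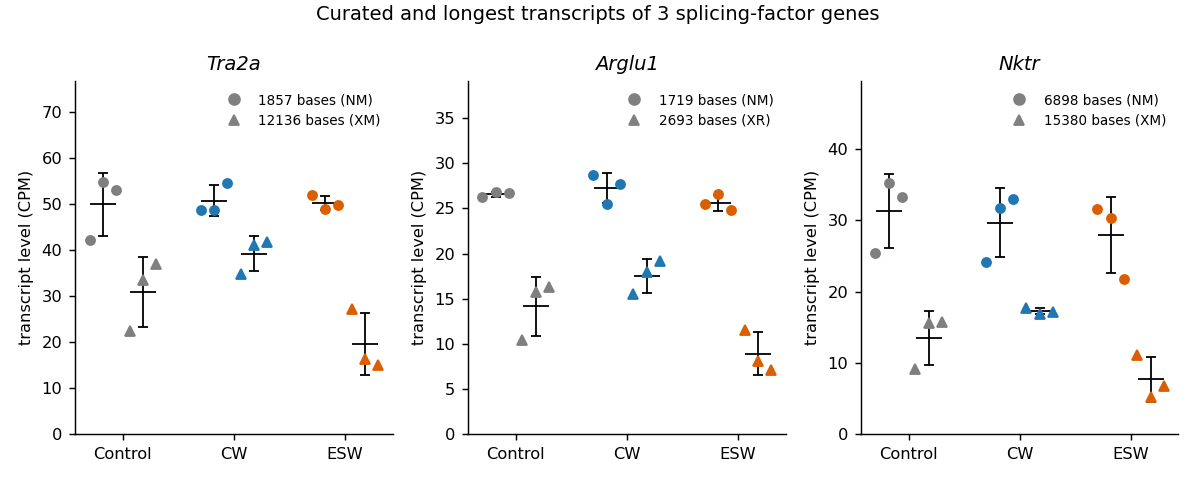
Level in CPM of the curated transcript (circles, NM) and of the longest transcript (triangles, XM or XR) of Tra2a, Arglu1 and Nktr in every library. Bars are the mean with SD (n = 3 per group). The curated transcripts overlap between ESW and CW, and the longest transcripts are lower in all 3 ESW libraries than in any CW library.

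The next list held nuclear speckle and splicing factors, at the gene level. Of its 44 tested members 12 were called lower (3.99% of all genes were) and 0 higher, with a median of -0.13 against 0.00 for all genes. Pnn, which encodes the speckle and junction protein pinin and has a single transcript in the tables, lay at 62.1, 61.6 and 56.2 CPM in ESW, 81.2, 76.7 and 81.3 CPM in CW and 69.1, 74.5 and 78.6 CPM in Control. Its log2 fold change was -0.41 (SE 0.05, edgeR adjusted p = 0.000454). Pnisr, a partner of pinin, was at 31.1, 24.8 and 24.5 CPM in ESW against 39.4, 40.4 and 38.4 CPM in CW (-0.56), and Rsrp1 was at -0.55. Nktr fell by 0.48, Arglu1 by 0.39 and Tra2a by 0.32 on the log2 scale. Of the SR proteins Srsf11, Srsf7 and Srsf6 were at -0.28, -0.23 and -0.17, and of the kinases that phosphorylate them Prpf4b was at -0.21. The number of members called was 6 without ESW replicate 3, 7 without ESW replicate 2 and 7 without either CW replicate 2 or 3. Relative to Control the list had a median of -0.09 in ESW and 0.03 in CW.

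Cyclins that pair with splicing and elongation kinases belong to the list of transcription and chromatin machinery. Ccnl2 lay at 65.6, 51.4 and 57.2 CPM in ESW and 79.0, 90.9 and 88.8 CPM in CW (-0.57, edgeR adjusted p = 0.00561). Ccnt2, a subunit of the elongation factor P-TEFb, fell by 0.40 and Ccnl1 by 0.30, whereas Hexim1, the inhibitor of P-TEFb, rose by 0.19 and lost its call with offsets for transcript length. In the list of transcription and chromatin machinery these were joined by Chd2 at -0.15, 4 lower and 1 higher of 34. Of 29 hnRNPs and other RNA-binding proteins 2 were lower (3.99% of all genes were), Cirbp at -0.24 and Hnrnpdl at -0.16. Both lost their calls with offsets for transcript length.

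Zinc finger genes form a large family of transcription factors. The tested protein-coding genes whose symbols begin with Zfp, most of which encode repressors of the KRAB class, numbered 328. Of these 22 were called lower (6.71%, where 3.99% of all genes were) and 2 higher. Their median was -0.06, with 64.9% below 0, where 50.5% of all genes were. The grouping was made with the results in view. Zfp709l1 had nearly equal values within each water group: 13.98, 13.9 and 14.03 CPM in ESW and 22.0, 22.7 and 23.2 CPM in CW, with 18.1, 22.0 and 22.7 CPM in Control (-0.70, SE 0.08, edgeR adjusted p = 0.000372). Only the sum of its non-coding transcripts was called lower, at -1.11 (edgeR adjusted p = 0.0208). Its coding sum was at -0.29 (SE 0.23, adjusted p = 0.521). Zfp808 lay at 8.52, 7.47 and 6.31 CPM in ESW and 14.2, 12.7 and 12.9 CPM in CW (-0.83). Zfp958 and Zfp692 were at -0.69 and -0.62, and Zfp40 at -0.33. Zfp503, a developmental repressor, and Zfp358 rose by 0.29 and 0.21. Many of these genes have near-identical copies among which reads are divided by estimate. The count called lower was 11 without CW replicate 2, 12 without ESW replicate 2 and 12 without ESW replicate 3.

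On the higher side, the extracellular matrix gave the most abundant genes. Type I and III collagen form the fibrils of connective tissue. Col1a1 lay at 37351, 38467 and 39191 CPM in ESW, 32585, 31460 and 33413 CPM in CW and 32261, 30220 and 31516 CPM in Control. All ESW values were above all others, a log2 fold change against CW of 0.24 (SE 0.03, edgeR adjusted p = 0.000827). Col1a2 rose by 0.21 and Col3a1 by 0.22. In the list of fibrillar collagens and collagen processing 6 of 26 tested genes were called higher (4.15% of all genes were), 0 lower, with a median of 0.10. The others were Col8a1, the collagen hydroxylase Plod3 and Pcolce, which enhances the cleavage of procollagen. Because these genes hold so many reads, the 10 most abundant genes took 14.6% to 14.9% of all reads in ESW against 13.3% to 13.7% in CW. The count of 6 fell to 3 without ESW replicate 3 and to 4 without CW replicate 2. The 4.15% covers genes of every level, and higher calls were more frequent among abundant genes. They were 534 of 5612 protein-coding genes above 30 CPM and 2 of 1395 of at most 1 CPM. The lists here and below were not compared with genes of like level.

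Elastic fibres give vessels and valves their recoil, and 8 of 17 tested genes were higher and 0 lower (6 higher with offsets for transcript length), with a median of 0.12. Eln, elastin itself, was at 462, 499 and 485 CPM in ESW, 402, 351 and 372 CPM in CW and 419, 372 and 386 CPM in Control (0.36, SE 0.05, adjusted p = 0.000704). Fbln5, which ties elastin to cells, rose from 534, 521 and 525 CPM to 616, 611 and 627 CPM (0.23). The latent TGF-beta binding proteins Ltbp2, Ltbp3 and Ltbp4 were higher by 0.24, 0.23 and 0.19, and the crosslinking oxidase Loxl1 by 0.19. Emilin1 and Efemp2 completed the 8, at 0.16 and 0.13. Without ESW replicate 3 the count was 4, and without CW replicate 2 or CW replicate 3 it was 5.

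Basement membranes underlie muscle and epithelial cells, and 6 of 15 such genes rose and 0 fell (median 0.14). Lamb2, a laminin chain, lay at 338, 336 and 351 CPM in ESW and 295, 293 and 307 CPM in CW, and Col15a1 at 84.0, 92.7 and 88.98 CPM against 77.1, 69.2 and 73.4 CPM. The type IV collagen pair Col4a1 and Col4a2, transcribed from a common promoter region, rose by 0.21 each. Of 17 proteases and inhibitors of the matrix 4 were higher, the metalloproteases Mmp19 and Adamts7 and the inhibitors Timp2 and Serpine2, at 0.13 to 0.21. Mmp2 had a larger value, 0.47, that was not called. Basement membrane calls numbered 2 without ESW replicate 3, 2 without CW replicate 2, 3 without ESW replicate 2 and 10 without Control replicate 1. Protease calls numbered 1 without ESW replicate 3 and 2 without CW replicate 3.

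**Figure D4:**
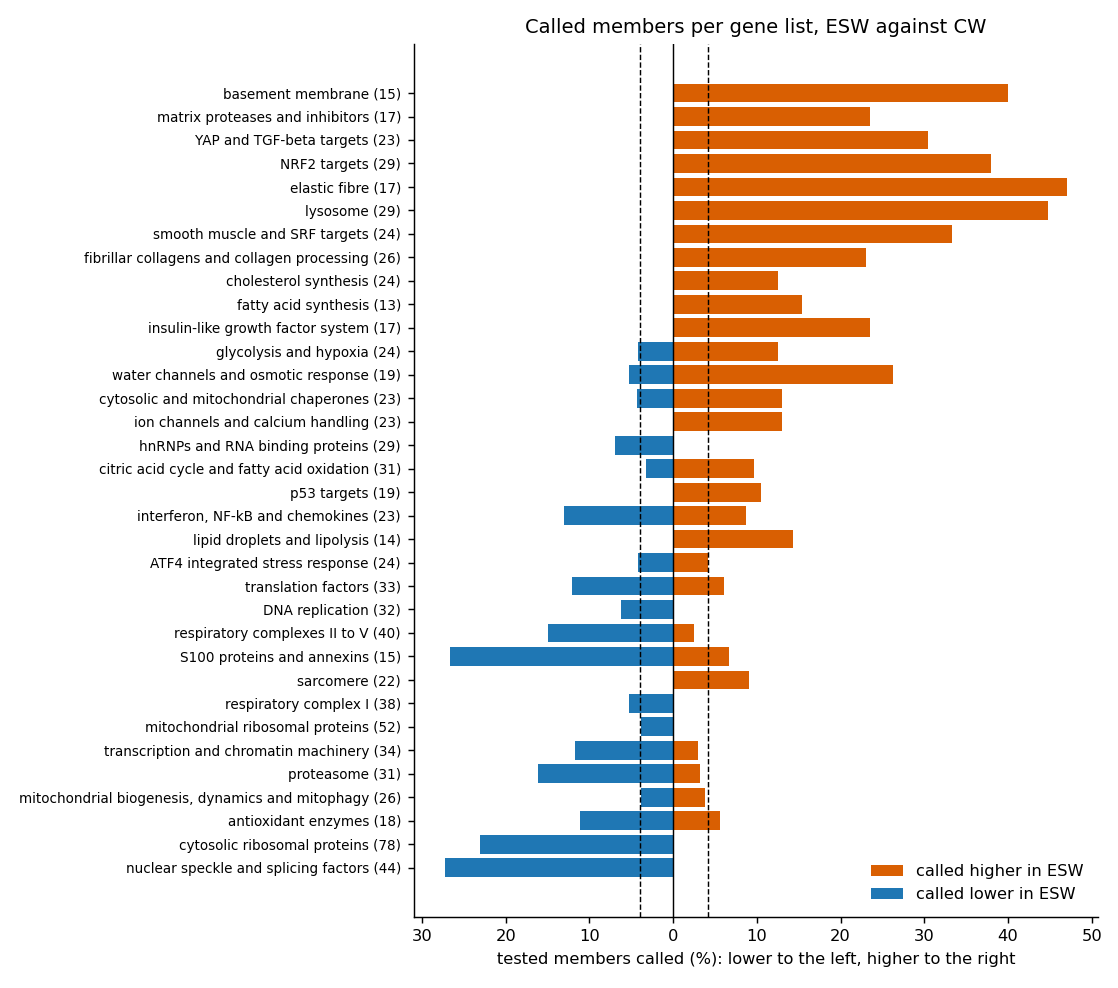
Percentage of tested members called lower (blue, left) or higher (orange, right) in ESW than in CW for the gene lists with at least 2 called members, ordered by their median log2 fold change. The number tested is in brackets. Dashed lines mark the share of all tested genes, of every level, called in that direction, 3.99% lower and 4.15% higher. Elastic fibre, lysosome and basement membrane genes have the longest bars to the right, and nuclear speckle, S100 and ribosomal protein genes the longest to the left.

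Contractile genes of smooth muscle, many of them driven by the serum response factor, had 8 of 24 members higher and 0 lower, with a median of 0.10. Acta2, smooth muscle actin, lay at 9054, 8830 and 8873 CPM in ESW, 8063, 7520 and 8123 CPM in CW and 7864, 7951 and 7975 CPM in Control (0.17, SE 0.03, edgeR adjusted p = 0.00519). Cnn1 and Myh11 rose by 0.17 and 0.23, and Smtn, Myl9, Actg2, Cnn2 and Zyx by 0.12 to 0.15. Tagln was not called, with 3448, 3339 and 3414 CPM in ESW and 3554, 3353 and 3496 CPM in CW. The 8 became 3 or 1 when ESW replicate 2 or 3 was left out, and 1 or 4 when CW replicate 2 or 3 was.

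Targets of YAP and TGF-beta had 7 of 23 higher and 0 lower, with a median of 0.13. Tgfb1, the ligand, was at 115, 118 and 113 CPM in ESW and 97.8, 89.97 and 90.4 CPM in CW (0.32, SE 0.04, adjusted p = 0.000712), and Tgfb2 and Tgfb3 were higher by 0.16 each. Thbs1, an activator of latent TGF-beta, rose by 0.19, and Ccn1 and Ccn2 by 0.13 and 0.16. The count was 4 or 2 with ESW replicate 2 or 3 left out, 3 or 4 with CW replicate 2 or 3 left out and 11 with Control replicate 1 left out, and with offsets for transcript length it was 3. In the insulin-like growth factor system 4 of 17 were higher: the binding protein Igfbp4 at 0.32, the receptor substrate Irs2 at 0.20, Igf2r, and Htra1, a protease of the binding proteins, whose call was lost with those offsets. The 4 became 2 or 1 when ESW replicate 2 or 3 was left out, and 2, 1 or 1 when CW replicate 1, 2 or 3 was.

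NRF2 is the transcription factor that raises glutathione, NADPH and iron-handling enzymes under oxidant stress. Of 29 targets 11 were higher and 0 lower, with a median of 0.12. Hmox1, which degrades heme, lay at 84.9, 79.8 and 78.6 CPM in ESW, 68.2, 67.3 and 65.0 CPM in CW and 58.4, 62.8 and 58.6 CPM in Control (0.28, SE 0.05, edgeR adjusted p = 0.00178). Slc48a1, which carries heme out of the lysosome, rose by 0.28, and the ferritin chains Ftl1 and Fth1 by 0.22 and 0.15. Pgd, which makes NADPH, rose by 0.15, and Gsr and Txnrd1, which spend it, by 0.25 and 0.14. Nqo1, Gstm1 and Sqstm1 were also among the 11. Nfe2l2, the gene of NRF2, and Keap1, its repressor, were at 0.05 and 0.03 (adjusted p = 0.580 and 0.811). Leaving out CW replicate 2 left 5 of the 11 calls in number, CW replicate 3 left 6, and ESW replicate 1 or ESW replicate 3 left 7 each. With ESW replicate 1 or Control replicate 1 left out, 1 target was called lower.

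Of 18 tested enzymes that remove superoxide and peroxides 1 was higher and 2 were lower, and 0 were called when ESW replicate 3, CW replicate 2 or CW replicate 3 was left out. The extracellular Sod3 was at 74.0, 73.8 and 75.9 CPM in ESW and 69.3, 59.1 and 57.4 CPM in CW (0.27). Gpx8 and Prdx4, both of the endoplasmic reticulum, were at -0.22 and -0.21 and lost their calls with offsets for transcript length. Sod1, Sod2 and Cat had log2 fold changes of 0.01, 0.02 and 0.12 with standard errors of 0.04, 0.05 and 0.06.

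Lysosomal genes had 13 of 29 members higher and 0 lower, with a median of 0.12, and they kept 12 of these with offsets for transcript length. Gaa, which breaks down glycogen in lysosomes, lay at 200.1, 209 and 210.0 CPM in ESW and 172, 166 and 167 CPM in CW, with 165, 156 and 149 CPM in Control (0.30, SE 0.04, edgeR adjusted p = 0.000712). The granulin precursor Grn rose by 0.21 and the proteases Ctsb and Ctsd by 0.20 and 0.19. Psap, Tpp1, Glb1, Lamp1, Hexa, Ctsa and the proton pump subunit Atp6v0d1 rose by 0.12 to 0.19. Of 21 core autophagy genes 0 were called by edgeR, with a median of 0.05. The 13 became 7 without ESW replicate 3 and 8 without CW replicate 2.

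Many lysosomal genes are known to carry E-box sites of the letters CACGTG read by the factor TFEB and its relatives. These letters, which read the same on both strands, were found in the RefSeq windows (250 bases before to 50 after a start) of 7 of 23 lysosomal genes with an entry (30.4%), against 7.08% of 27457 genes and 9.52% of tested genes. They stood before 5 of the 8 called higher genes with an entry and before 2 of the other 15. The upstream 250 bases of 3 called genes are shown because they differ in the number of matches: 1 in Gaa, 2 in Ctsd and 5 in Lamp1. They are from RefSeq, GRCr8, 5′ to 3′ on the strand of the gene, with CACGTG in capitals. A match is a run of letters, and binding was not measured.
Gaa (chr10:105028105-105028354, plus strand): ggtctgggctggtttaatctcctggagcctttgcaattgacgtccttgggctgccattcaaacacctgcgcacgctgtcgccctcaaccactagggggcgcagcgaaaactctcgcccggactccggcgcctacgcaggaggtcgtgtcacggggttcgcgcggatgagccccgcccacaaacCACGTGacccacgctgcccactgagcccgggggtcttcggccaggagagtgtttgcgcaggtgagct
Ctsd (chr1:206968822-206969071, minus strand): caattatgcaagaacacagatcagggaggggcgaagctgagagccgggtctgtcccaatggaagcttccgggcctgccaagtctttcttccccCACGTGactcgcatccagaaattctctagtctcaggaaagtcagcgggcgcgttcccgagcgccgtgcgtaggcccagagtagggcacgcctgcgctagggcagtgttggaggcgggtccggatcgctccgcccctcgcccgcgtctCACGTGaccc
Lamp1 (chr16:83075064-83075313, minus strand): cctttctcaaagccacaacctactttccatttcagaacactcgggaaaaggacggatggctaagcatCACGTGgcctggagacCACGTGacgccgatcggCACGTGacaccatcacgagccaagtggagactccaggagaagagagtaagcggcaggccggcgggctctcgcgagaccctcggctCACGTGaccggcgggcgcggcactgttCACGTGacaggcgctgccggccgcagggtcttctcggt
For the other motifs, the antioxidant response element core TGACNNNGC stood in the windows of 7 of 23 NRF2 targets (30.4%) and of 13.1% of all genes, on either strand. Of the 5 called higher NRF2 targets with an entry it was found for Txnrd1 alone, and of the other 18 it was found for 6. Among tested genes 14.8% had it. The CArG box of the serum response factor was found before 2 of 20 smooth muscle genes, Cnn2 and Srf, and before 1.77% of all genes.

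In lipid and energy metabolism a few genes changed and most did not. Mgll, the lipase that ends triglyceride breakdown, was at 22.5, 23.5 and 24.6 CPM in ESW, 17.5, 16.7 and 16.1 CPM in CW and 20.1, 19.4 and 18.9 CPM in Control, so that Control lay between the waters (0.49, SE 0.06, edgeR adjusted p = 0.000553). Pnpla2, which starts it, rose by 0.20 and lost its call with offsets. Cpt1b, the muscle form of the enzyme that admits fatty acids to mitochondria, lay at 2.59, 1.66 and 2.31 CPM in ESW and 3.63, 4.71 and 4.80 CPM in CW (-1.02, SE 0.21, adjusted p = 0.00665). The more general form Cpt1a was at 0.26 and not called. Of 31 genes of the citric acid cycle and fatty acid oxidation 3 were higher, Ogdh, Idh3a and Sdha at 0.13 to 0.18, all without a call under offsets for transcript length, and Cpt1b alone was lower. Among 24 genes that make cholesterol 3 rose: Ebp by 0.31 and the regulators Srebf2 and Scap by 0.14 and 0.15, where the call of Scap was lost with DESeq2 size factors, with other filters on low counts and with length offsets, among others. Fatty acid synthesis had 2 of 13, namely Acss2 at 0.24 and the citrate carrier Slc25a1 at 0.20. Without CW replicate 3 both lists had 0 calls, and without ESW replicate 3 cholesterol synthesis had 0 and the citric acid cycle list 0 higher.

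Respiratory chain subunits pass electrons to oxygen and drive ATP synthesis. In complex I, 2 of 38 nuclear-encoded subunits were lower (3.99% of all genes were), Ndufb1 at -0.36 and Ndufa12 at -0.14, with a list median of -0.02. The 2 became 0 when ESW replicate 3, CW replicate 2 or CW replicate 3 was left out, and 5 when Control replicate 1 was. In complexes II to V, 6 of 40 were lower and 1 higher: Cox7b at -0.22, the ATP synthase subunits Atp5mf, Atp5po, Atp5f1c, Atp5pb and Atp5mg at -0.24 to -0.16, and Sdha. The 6 became 0 when either ESW replicate 2 or 3 was left out, 2 or 0 when CW replicate 2 or 3 was, and 3 with offsets for transcript length. Mitochondrially encoded genes were not analysed here.

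Of 78 cytosolic ribosomal protein genes 18 were called lower, 0 higher and 60 not called, with a median of -0.09. Of all tested genes 3.99% were called lower and 4.15% higher. Rpl9 lay at 300.3, 331 and 301 CPM in ESW, 359, 399 and 416 CPM in CW and 379, 406 and 455 CPM in Control (-0.33, SE 0.06, edgeR adjusted p = 0.00319). Rps18 fell by 0.32, Rpl13a by 0.23 and Rps21 and Rpl17 by 0.21 each on the log2 scale. Pseudogene copies of these genes take up reads, so that single values are uncertain. Proteasome subunits had 5 of 31 lower, among them Psmb4, Psmb1 and Psma6 of the core at -0.29 to -0.25, and 1 higher, Psmd2 of the cap at 0.16. Of 33 translation factors 4 were lower, including both Eif2s1 at -0.21 and Eif2s2 at -0.24 of the initiator complex, and 2 higher. The 2 higher calls became 0 when replicate 2 or 3 of either water was left out, and the 4 lower became 2 with ESW replicate 3 left out. The ribosomal protein count was 4 or 2 with ESW replicate 2 or 3 left out and 5 or 3 with CW replicate 2 or 3 left out. Lower proteasome calls numbered 2 or 0 and 1 or 0 in the same fits, and 8 with Control replicate 1 left out.

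These genes are short, and length moved with the direction of change. When protein-coding genes were divided into 5 equal classes by the longest transcript, 64 were called higher and 116 lower up to 1766 bases, and 68 and 139 from 6622 bases. The 3 classes between had 164 and 49, 150 and 56, and 161 and 77. With offsets for the average transcript length, 13 ribosomal protein genes and 12 speckle genes were called lower and 12 lysosomal and 9 NRF2 target genes higher, and 802 genes in all were called. The part of transcript length in these results was not tested beyond that fit.

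S100 proteins are small calcium-binding proteins that are abundant in motile and growing cells. Of 15 tested S100 and annexin genes 4 were lower (3.99% of all genes were), 1 higher and 10 not called, and their median was -0.01. S100a6 lay at 409, 381 and 365 CPM in ESW, 483, 604 and 605 CPM in CW and 527, 569 and 732 CPM in Control (-0.55, SE 0.09, edgeR adjusted p = 0.00191). S100a4 fell by 0.32, S100a10 by 0.25 and Anxa1 by 0.21 on the log2 scale, whereas Anxa11 rose by 0.13. S100a10, a partner of annexin A2, lay at 196, 199 and 190.3 CPM in ESW and 235, 229.8 and 232 CPM in CW. Anxa1 and Anxa11 lost their calls with offsets for transcript length.

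Among muscle and membrane genes, Myh1, a fast skeletal myosin heavy chain, rose from 55.3, 53.2 and 48.7 CPM in CW to 66.3, 80.2 and 76.1 CPM in ESW, with 50.4, 46.9 and 46.7 CPM in Control (0.51, SE 0.06, edgeR adjusted p = 0.000408). It was joined by Acta1 alone among 22 sarcomere genes, at 0.23, a call lost with offsets for transcript length, and 0 of 11 myogenic regulators were called by edgeR. Myog was at 0.05 (SE 0.20). Kcng1, a modifier of potassium channels, rose by 0.51, Jph2, which holds the calcium release units of muscle together, by 0.22 and Atp2a2 by 0.16. Of 19 genes of water channels and the osmotic response 5 were higher, among them the sodium pump subunit Atp1b1 at 0.16, the amino acid and taurine carriers Slc38a2 and Slc6a6 at 0.16 and 0.18, and the ion cotransporter Slc12a2 at 0.13. Nfat5, the factor that answers high salt, was lower at -0.23, and the water channel Aqp1 was at -0.11 (adjusted p = 0.130). Slc6a6, Slc12a2 and Nfat5 lost their calls with offsets for transcript length. The 5 became 3 or 1 when ESW replicate 2 or 3 was left out, and 2 or 3 when CW replicate 2 or 3 was.

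Of 23 chaperone genes 3 were higher and 1 lower. Hspa1b, an inducible HSP70, lay at 9.88, 10.3 and 10.1 CPM in ESW and 7.89, 7.19 and 6.59 CPM in CW (0.49, edgeR adjusted p = 0.00436), and Bag3 and Hspb1, its partners in muscle, rose by 0.22 and 0.16. Cdkn1a, the cell cycle inhibitor p21, was at 159, 164 and 164 CPM in ESW and 143, 133 and 132 CPM in CW (0.26), and Phlda3 was the second of 19 p53 targets called higher. Of 26 genes of mitosis 0 were called. Of 32 genes of DNA replication Rfc3 and Rfc4 were lower, at -0.21 and -0.25 (3.99% of all genes were lower). Both lost their calls with offsets for transcript length. Among 23 NF-kB, interferon and chemokine genes 2 were higher and 3 lower: the subunits Rela and Nfkb2 rose by 0.20 and 0.21, whereas Cxcl12, Il1rl1 and the inhibitor Tnfaip3 were lower at -0.18, -0.15 and -0.38, the last without a call under those offsets. In that list 0 were higher and 1 lower when ESW replicate 3 was left out.

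Several of the largest changes lay in genes of low level. Besides Cpt1b and Vof16, Prss16, a thymus-type serine protease, was at 1.18, 1.61 and 1.34 CPM in ESW and 1.85, 3.08 and 3.47 CPM in CW (-1.03, SE 0.23, edgeR adjusted p = 0.00918). Slc9a5, a sodium-proton exchanger, was at -0.91. Lcat, the plasma enzyme that esterifies cholesterol, lay at 13.5, 9.44 and 10.6 CPM in ESW and 18.4, 19.996 and 23.6 CPM in CW (-0.89). On the higher side Tmem64, a membrane protein linked to calcium signalling, rose from 12.3, 11.3 and 10.8 CPM to 17.7, 16.04 and 18.02 CPM (0.59, SE 0.08), but was not called with offsets for transcript length. Slc52a2, a riboflavin carrier, rose from 12.8, 13.5 and 13.2 CPM to 18.1, 18.7 and 17.996 CPM (0.47, SE 0.07, adjusted p = 0.000834) and kept its call under each of the 19 alternatives. The pseudogene Hsp90aa1-ps17 rose by 1.07, with values of 41.7, 71.8 and 39.6 CPM in ESW and 23.7, 36.6 and 12.4 CPM in CW, and Control at 45.6, 51.4 and 37.9 CPM was level with ESW. Its reads can be shared with the parent gene.

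**Figure D5:**
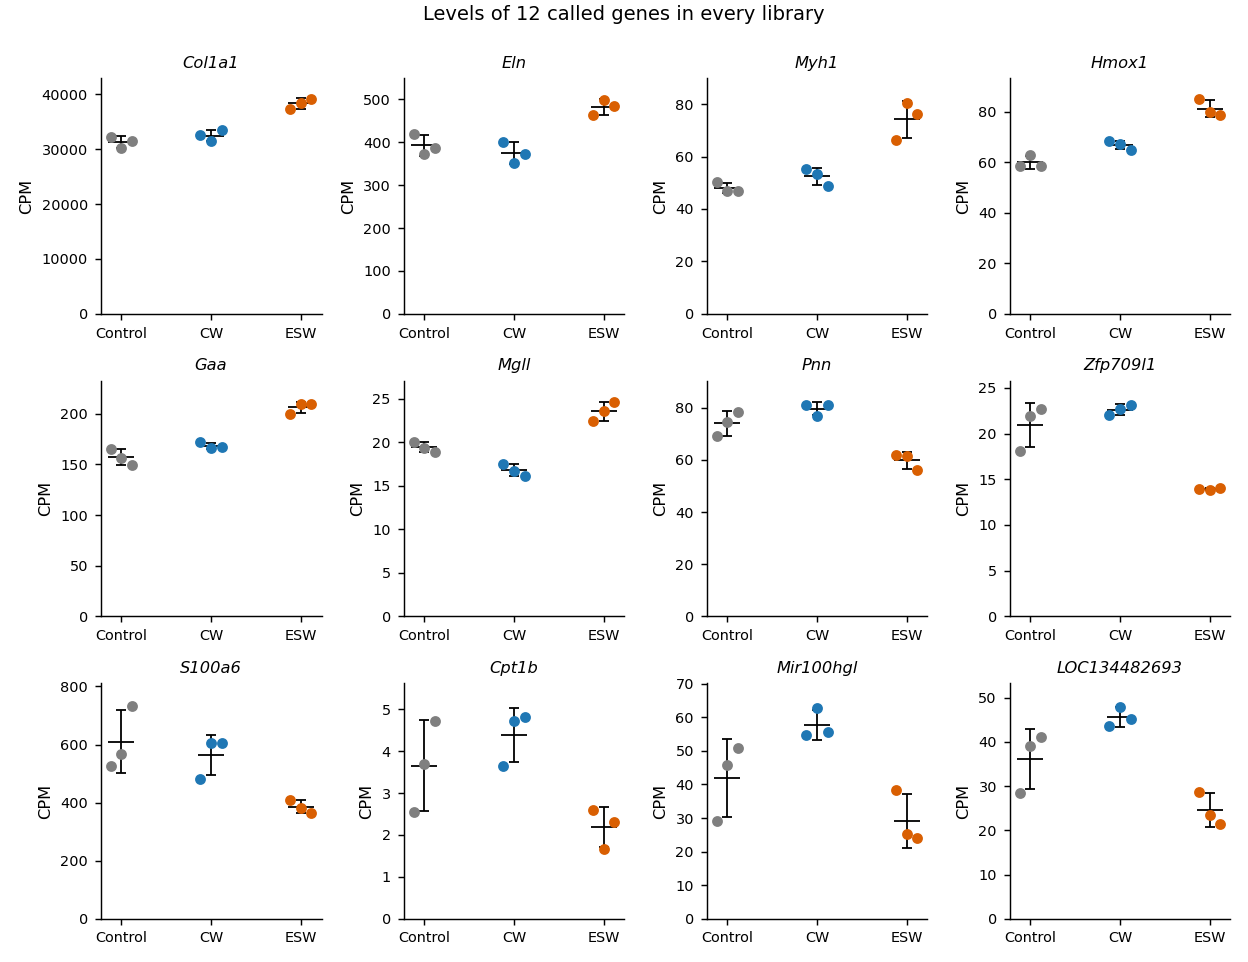
Level in CPM of 12 called genes in every library. Points are libraries and bars the mean with SD (n = 3 per group), and each y axis starts at 0. The first 6 genes are higher in ESW than in CW and the last 6 lower, without overlap. For Mir100hgl, LOC134482693 and Cpt1b, Control replicate 1 is the lowest Control library.

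Control replicate 1 was the lowest Control library for 346 of the 437 protein-coding genes called lower and for 106 of the 142 lncRNAs, and it lay within or beyond the ESW range in 177 of those 437 genes. For the 607 protein-coding genes called higher it did so in 118.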

How the data were processed

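RNA of 9 H9c2(2-1) libraries was measured by sequencing. The authors quantified transcripts with Salmon 1.10.3, per the submitters' processing notes, and deposited for each library estimated counts, TPM and effective lengths per RefSeq transcript. The annotation build, library selection and strand setting are not given in the sources used here. Estimated counts were summed over the transcripts of each gene through RefSeq names (GRCr8; all 114122 transcripts matched, 36856 genes) and rounded. Genes were kept with filterByExpr, scaled by TMM and tested with edgeR 4.0.16 in R 4.3.3 (quasi-likelihood, all 9 libraries in 1 model without a block, 6 residual degrees of freedom, common biological coefficient of variation 4.84%, Benjamini-Hochberg adjustment over 14706 genes, threshold 0.05). Depth limits genes of few reads, and the small number of libraries limits all. The deposited TPM values served as an alternative for shares of reads, and the deposited effective lengths gave the length offsets.

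The script was tested on simulated data. The text names called members of the gene lists, the largest changes and calls in each class of at least 1 CPM, and a fixed panel. Members and lists were chosen with earlier results of these data known. Names described as chosen after the values were seen lie outside that rule. Alternatives were other scalings, filters, DESeq2 1.42.0, limma-voom (limma 3.58.1), length offsets, thinning, the 6 water libraries alone, a replicate block and leaving out each library. The fit with coding and non-coding transcripts of a gene apart was added after seeing the data. Same-numbered libraries did not deviate together, so the numbers were not used as pairs. Some members that the naming rule selects are not reported here.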

Additional observations from a re-analysis of the deposited data

How the results depend on the processing

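Called genes numbered 1160 with DESeq2 size factors, 1241 with DESeq2, 1182 with limma-voom, 802 with length offsets, 1049 after thinning and 1417 with the 6 water libraries alone. Higher calls numbered 392 with length offsets. The median lncRNA difference was -0.22 without a filter on low counts and -0.23 with DESeq2, and 12 transcripts were called with a minimum of 1 CPM in 3 libraries. Leaving out 1 library at a time gave 314 to 1486 called genes (143 to 701 higher, 171 to 785 lower), 266 to 1314 protein-coding calls, 46 to 161 lncRNAs lower, a lncRNA median of -0.37 to -0.29, differences in share of -0.178 to -0.16 for lncRNAs and -0.0868 to -0.0696 for non-coding transcripts of protein-coding genes, and 0 to 66 non-coding sums called lower; the cause was not tested. With the replicate number as a block, 949 genes and 21 non-coding sums were called; the libraries share only a number. Of 168 named genes 158 were called, 61 of them under all 19 alternatives, and 0 reversed. Called genes whose ESW and CW values do not overlap could hardly reverse when 1 library was left out.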
